A study of Rattus norvegicus with 16 samples.

Results

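Heat shock proteins and their DnaJ co-chaperones were followed in a leg muscle, the tibialis anterior, of Wistar-Imamichi rats with and without a mutation in Dmd, the dystrophin gene whose loss causes Duchenne muscular dystrophy. The members are the protein-coding genes whose symbols begin with Hsp90, or with Hspa, Hspb, Hspd, Hspe or Hsph and then a digit. Cryab is a member too, as are those whose symbols begin with Dnaja, Dnajb or Dnajc and then a digit. By that rule 71 of the 31141 genes of the deposited table were taken, 26 heat shock proteins and 45 DnaJ proteins. Of the 71, 62 reached 1 FPKM in at least 4 libraries and were tested, and the other 9 (Hspa12a, Hspb9, Dnajb3, Dnajb7, Dnajb8, Dnajb13, Dnajc5b, Dnajc5g and Dnajc6) were below that level, with Hspa12a, at most 0.909 FPKM in any library, the highest of the 9 and Dnajb8 at 0 in all 16.

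Small heat shock proteins hold unfolding proteins in a soluble state without using ATP, and in striated muscle several of them sit on the Z-disc, on desmin and on filamin. HSP70 proteins bind and release such clients in an ATP cycle that DnaJ proteins start and that HSP110 proteins and other exchange factors reset. HSP90 proteins finish the folding of kinases, receptors and, in muscle, of myosin. Separate HSP70, HSP90 and DnaJ members work in the endoplasmic reticulum (ER), and mitochondria hold their own HSP70, HSP60 and HSP10.

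The 16 messenger RNA libraries came from Dmd-mutant rats fed MCTKD (DMD_KD, n = 6), Dmd-mutant rats on a normal diet, ND (DMD_ND, n = 6), and wild-type rats that also received ND (WT_ND, n = 4). The rats were 9 months old and had been on their diets since weaning. The labels do not spell out MCTKD, do not describe the mutation and do not state that each library is a separate animal, so p-values measure the spread between these libraries. RNA came from frozen muscle tissue, so fibres and all other cells of the tissue contributed RNA, and fewer cells of a type cannot be told apart from less RNA per cell.

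Assigned reads numbered 17125084 to 28116085 per library. Dmd itself ranged over 0.546 to 2.04 FPKM in DMD_KD, 1.37 to 1.98 FPKM in DMD_ND and 4.13 to 11.9 FPKM in WT_ND, so mutant and wild-type libraries did not overlap. The deposited FPKM, fragments per kilobase of gene scaled for library size, were already scaled between libraries by a size factor, and their totals per library differed: 398180 to 727999 in DMD_KD, 368688 to 424101 in DMD_ND and 623029 to 995390 in WT_ND. Every comparison with WT_ND was therefore also made on TPM, the same values brought to an equal total in each library. That step moved the median log2 fold change of all 12119 tested genes to 0.83, against -0.04 in deposited FPKM, for DMD_ND over WT_ND, and for DMD_KD over WT_ND to 0.56, against -0.06. For DMD_KD over DMD_ND the median of all tested genes was -0.24 in TPM and -0.01 in deposited FPKM. Libraries DMD_KD3, WT_ND1 and WT_ND4 stood apart by low array weights, of 0.129, 0.283 and 0.238, and had the highest FPKM totals of their groups. Counts of called members, and fold changes of the members described in full, are also given without these 3. Leaving them out keeps only WT_ND3 and WT_ND9 in WT_ND, so such values and calls rest on very few wild-type libraries.

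In mutant muscle on the normal diet more chaperone genes were lower than higher in deposited FPKM. Hspa9, Dnaja3, Hsp90ab1 and Dnajb5 fell the furthest, while Hspb11, Hspa2, Hspb8, Hspa14 and Hsp90b1 rose. The 5 rises and the fall of Dnaja3 were also called on TPM, and the other 30 falls were not. TPM moved the median of all tested genes upward, so its calls are no separate support for the rises and run against the falls. Of the 62 tested members, 31 were called lower in DMD_ND than in WT_ND (50%, against 34.3% of all tested genes) and 5 higher (8.06%, against 31.5%), at an adjusted p under 0.05 in limma. In either direction 36 members were called (58.1%, against 65.7% of all tested genes), and 35 on TPM (56.5%, against 76.6%). On TPM 1 was called lower (1.61%, against 5.94%) and 34 higher (54.8%, against 70.7%), so that 6 of the 31 (Hspe1, Dnaja2, Dnajb2, Dnajc30, Dnajc11 and Dnajc25) were called in opposite directions on the 2 scales. The median log2 fold change of the tested members lay below that of all tested genes by a similar amount on each scale, -0.39 in deposited FPKM and -0.35 in TPM. Well-expressed genes were lower as a whole. Among the 6244 genes with a mean of at least 5 FPKM the median in deposited FPKM was -0.26. The 49 members among them had a median of -0.56, a gap of -0.30. Without the 3 libraries that stood apart, 34 were called lower and 7 higher, among them all 31 and all 5, with Hspa5 and Dnajb1 added as higher and Dnajb4, Dnajc2 and Dnajc19 as lower. Of the 62, 58 reached 1 FPKM in every library. Hspa4l was under 1 FPKM in 12 libraries and entered the test through WT_ND, so its values are given below without a p. Without it, 30 of 61 were called lower (49.2%).

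**Figure D1:**
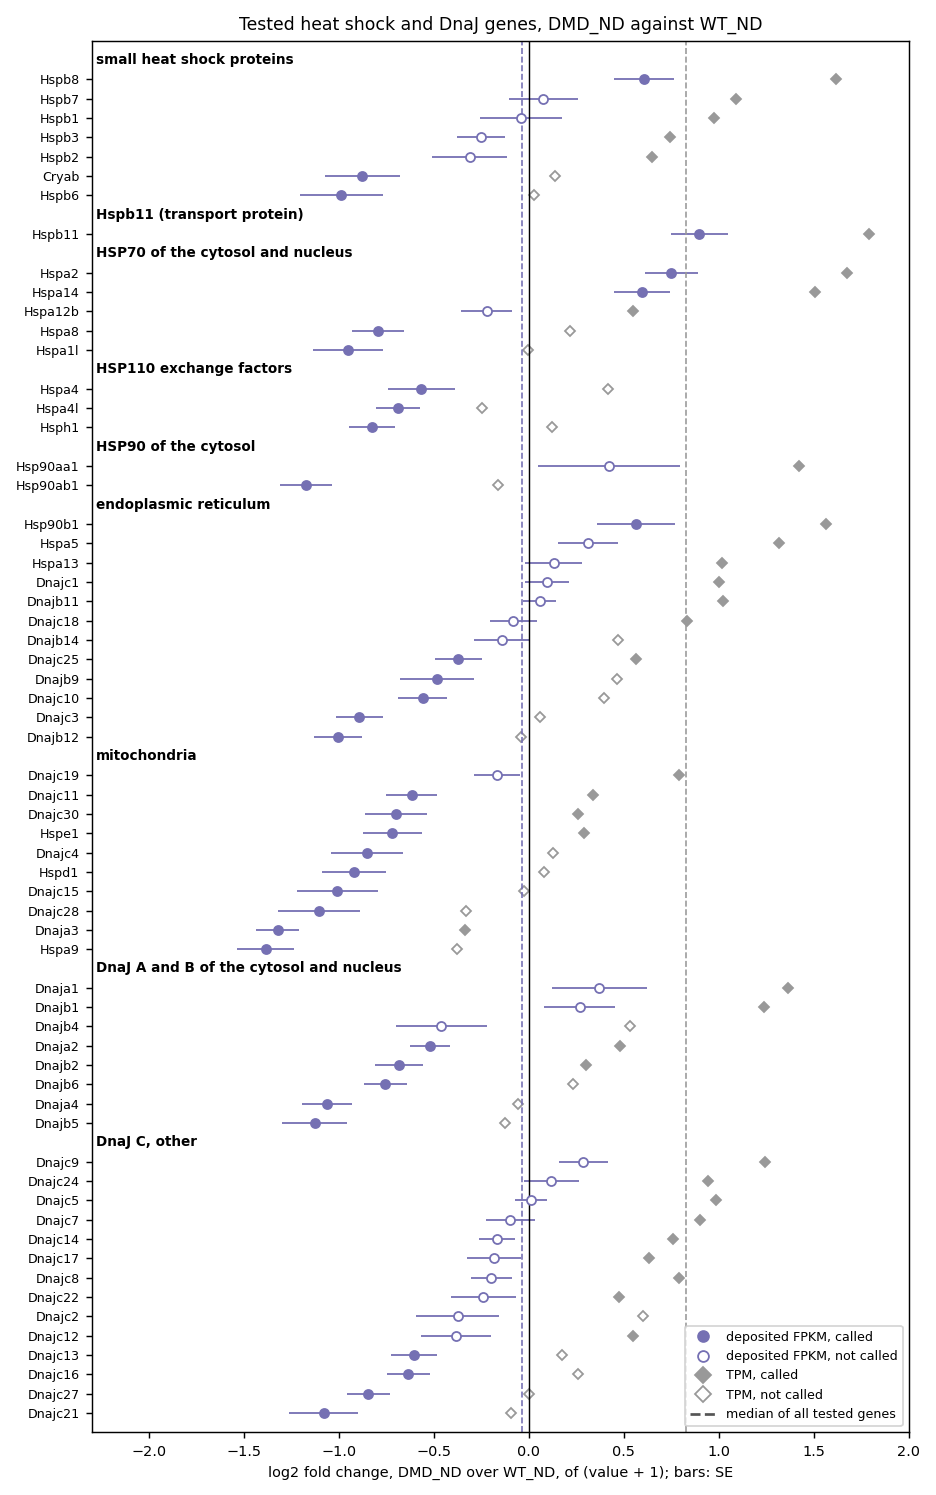
Log2 fold changes (DMD_ND over WT_ND, of value + 1) of the 62 tested members in 9 role classes, as circles for deposited FPKM with bars of 1 SE and as diamonds for TPM, filled where called at an adjusted p under 0.05. Dashed lines mark the medians of all tested genes, -0.04 in FPKM and 0.83 in TPM. The mitochondrial class and the HSP110 class lie left of the FPKM median line, and most of their TPM values lie to the right of 0 but left of the TPM median line.

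Promoter sequences show which members carry the letters of a heat shock element or of an ER stress element close to their start. RefSeq promoters (build GRCr8, 250 bases before to 50 bases after the start) were matched by symbol for 56 of the 71 members. The heat shock element was searched as GAANNTTCNNGAA on both strands and occurred in 5 of the 56 (8.93%), Dnaja1, Hspa8, Hspd1, Hspe1 and Hsph1, against 0.798% of 33469 promoters. The ER stress element was searched as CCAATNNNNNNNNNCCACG on both strands and occurred in 3 of the 56 (5.36%), Dnajc3, Hsp90b1 and Hspa5, against 0.0657% of all. The windows of Hspd1 and Hspe1, which lie head to head, share 211 bases. Their heat shock element matches are the same letters read on opposite strands, so the 5 members and the 8.93% count that stretch for each gene. Hspd1 is therefore not printed beside Hspe1, and the match of Dnaja1 lies after its start. A match is a run of letters and not a bound site. The 250 bases before the start are shown, 5′ to 3′ on the gene's strand, for 5 of the members whose values are given below, with matches in capitals, on either strand, and adjoining or overlapping matches as 1 run.
Hspe1 (heat shock element, chr9:64084077-64084326, + strand): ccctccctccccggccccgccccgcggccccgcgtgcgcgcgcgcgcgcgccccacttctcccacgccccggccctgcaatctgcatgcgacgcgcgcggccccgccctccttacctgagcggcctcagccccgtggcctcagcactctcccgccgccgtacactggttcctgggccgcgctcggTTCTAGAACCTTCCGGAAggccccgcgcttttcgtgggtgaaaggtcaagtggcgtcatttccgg
Hspa8 (heat shock element, chr8:50080264-50080513, + strand): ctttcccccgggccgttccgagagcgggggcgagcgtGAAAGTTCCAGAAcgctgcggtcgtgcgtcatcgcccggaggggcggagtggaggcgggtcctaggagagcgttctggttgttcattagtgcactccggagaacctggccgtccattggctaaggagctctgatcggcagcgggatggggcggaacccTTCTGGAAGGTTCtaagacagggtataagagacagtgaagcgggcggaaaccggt
Hsph1 (heat shock element, chr12:10427118-10427367, + strand): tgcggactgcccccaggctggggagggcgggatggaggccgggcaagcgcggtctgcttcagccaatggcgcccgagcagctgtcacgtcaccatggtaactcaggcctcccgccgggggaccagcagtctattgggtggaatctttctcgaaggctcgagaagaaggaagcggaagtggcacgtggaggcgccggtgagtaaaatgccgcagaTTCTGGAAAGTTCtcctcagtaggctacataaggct
Hspa5 (ER stress element, chr3:38452766-38453015, + strand): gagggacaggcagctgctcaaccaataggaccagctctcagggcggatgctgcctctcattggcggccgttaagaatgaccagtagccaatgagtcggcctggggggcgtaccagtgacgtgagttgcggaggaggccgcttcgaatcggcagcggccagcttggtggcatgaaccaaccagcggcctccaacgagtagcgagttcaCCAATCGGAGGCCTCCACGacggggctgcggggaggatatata
Hsp90b1 (ER stress element, chr7:23012294-23012543, - strand): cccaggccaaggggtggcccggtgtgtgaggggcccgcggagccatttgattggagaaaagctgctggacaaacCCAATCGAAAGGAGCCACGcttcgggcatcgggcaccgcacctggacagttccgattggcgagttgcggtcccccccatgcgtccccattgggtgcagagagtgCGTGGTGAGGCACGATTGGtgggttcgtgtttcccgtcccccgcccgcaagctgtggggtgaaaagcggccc
Of the 5 members with a heat shock element, Hspa8, Hspd1, Hspe1 and Hsph1 were called lower in DMD_ND than in WT_ND in deposited FPKM and Dnaja1 was not called, whereas on TPM Hspe1 and Dnaja1 were called higher and the other 3 were not called. Of the 3 with an ER stress element, Hsp90b1 was called higher on both scales, Dnajc3 lower in deposited FPKM only and Hspa5 higher on TPM only.

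In what follows, the values of DMD_KD and DMD_ND are the lowest, median and highest of 6 libraries, and those of WT_ND are the 4 libraries in the order of replicates 1, 3, 4 and 9. Fold changes are log2 differences of (value + 1), DMD_ND over WT_ND unless another pair is named, with the standard error (SE) and p-values of limma adjusted by the Benjamini-Hochberg method over all 12119 tested genes. The size of a fold change is understated for members near 1 FPKM. Statements that libraries lie above, below or apart from others refer to deposited FPKM unless TPM is named, and such separation need not hold on TPM.

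The small heat shock proteins did not move as 1 group: Cryab and Hspb6 fell in deposited FPKM, Hspb8 rose, and Hspb1, Hspb2, Hspb3 and Hspb7 were not called, whereas on TPM Hspb8 and those 4 were called higher and Cryab and Hspb6 were not called. Cryab encodes alpha B-crystallin, which protects desmin filaments and whose mutations cause myofibrillar myopathy. It had 448, 519 and 868 FPKM in DMD_KD, 475, 520.4 and 604 FPKM in DMD_ND, and 1221, 786, 1246 and 724 FPKM in WT_ND. Each DMD_ND value was below each WT_ND value, WT_ND1 and WT_ND4 were the highest of all 16, and DMD_KD3 stood above the rest of its diet group and inside the wild-type range. Its fold change was -0.88 (SE 0.20, adjusted p = 0.000952), -0.52 without the 3 libraries that stood apart and 0.14 in TPM. Hspb6, the muscle-rich protein HSP20, had 236, 321 and 574 FPKM in DMD_KD, 255, 267 and 289.9 FPKM in DMD_ND, and 711, 438, 681 and 382 FPKM in WT_ND. The DMD_ND libraries lay close together, below all 4 WT_ND libraries, and DMD_KD3 was again the highest of its group. The fold change was -0.99 (SE 0.22, adjusted p = 0.000732), -0.60 without the 3 libraries and 0.03 in TPM.

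Hspb8 works with the co-chaperone BAG3 in chaperone-assisted autophagy, the pathway that clears damaged filamin from the Z-disc. It had 333, 341 and 468 FPKM in DMD_KD, 335, 414 and 449.6 FPKM in DMD_ND, and 321, 205, 317 and 219 FPKM in WT_ND. All 12 mutant libraries were above all 4 wild-type libraries. It rose by 0.60 (SE 0.16, adjusted p = 0.00266) in DMD_ND, with 0.90 without the 3 libraries and 1.62 in TPM. Hspb1, or HSP27, was not called, at -0.04 (SE 0.22, adjusted p = 0.878), 0.33 without the 3 libraries and 0.97 in TPM. Hspb7, a small heat shock protein of heart and muscle, was at 0.08 (SE 0.18, adjusted p = 0.725), 0.36 without them and 1.09 in TPM, and Hspb3 at -0.25 (SE 0.13, adjusted p = 0.093), -0.11 without them and 0.74 in TPM. Hspb2 overlaps Cryab by 1093 bases on the opposite strand of chromosome 8, where Cryab spans bases 51093441 to 51099157 and Hspb2 bases 51081342 to 51094533 (mRatBN7.2), and Cryab took 205668 reads against 10252 for Hspb2. The labels do not say whether the libraries kept strand, so Hspb2, at -0.31 (SE 0.20, adjusted p = 0.174), 0.03 without the 3 libraries and 0.65 in TPM, cannot be told apart from reads of Cryab.

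**Figure D2:**
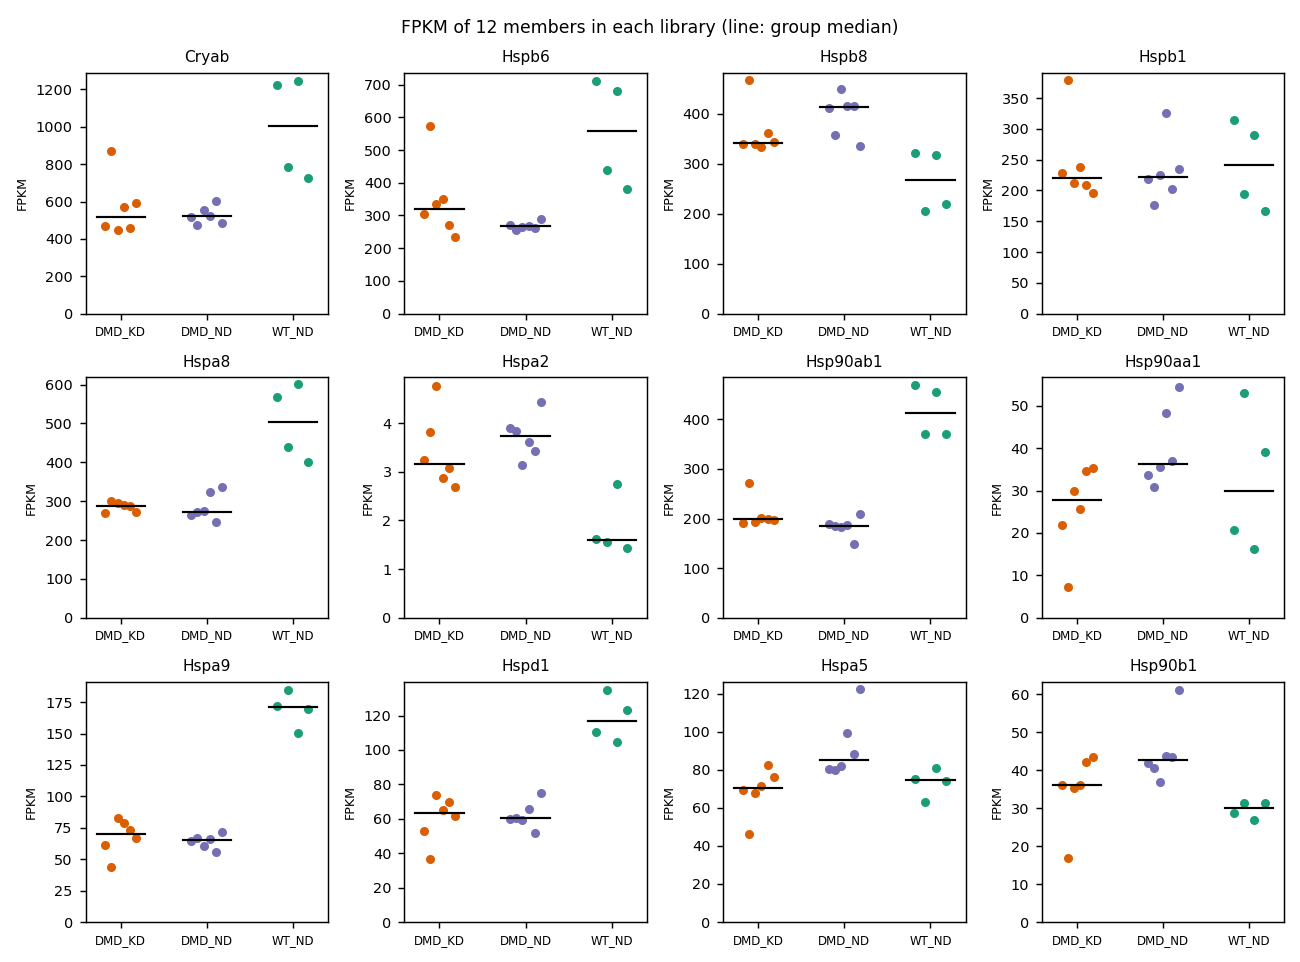
FPKM of 12 members in each library, DMD_KD left, DMD_ND in the middle and WT_ND right, with a line at the group median. Cryab, Hspb6, Hspa8, Hsp90ab1, Hspa9 and Hspd1 are lower in every DMD_ND library than in every WT_ND library, Hspb8, Hspa2 and Hsp90b1 are higher, and Hspb1, Hsp90aa1 and Hspa5 overlap. On TPM Cryab, Hspb6, Hspa8 and Hspd1 have fold changes above 0.

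Hspb11 shares the family's name but is known as Ift25, a protein of intraflagellar transport in cilia. It had 1.81, 2.04 and 2.71 FPKM in DMD_KD, 2.22, 2.67 and 4.02 FPKM in DMD_ND, and 0.497, 1.45, 1.52 and 1.0 FPKM in WT_ND. All mutant libraries were above all wild-type libraries, and the fold change was 0.90 (SE 0.15, adjusted p = 5.62e-05), 0.80 without the 3 libraries and 1.79 in TPM. It overlaps Lrrc42 by 249 bases on the opposite strand, and Lrrc42 took 4248 reads against 894 for Hspb11, so its values are uncertain.

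Among the HSP70 proteins of the cytosol and nucleus, Hspa8 and Hspa1l fell in deposited FPKM and were not called on TPM, while Hspa14 and Hspa2 rose on both scales and Hspa12b was not called (-0.22 (SE 0.13, adjusted p = 0.158), 0.55 in TPM, where it was called higher). Hspa8, the constitutive HSC70 that serves most DnaJ proteins of the cytosol, had 269, 289 and 300.0 FPKM in DMD_KD, 246, 273 and 338 FPKM in DMD_ND, and 567, 439.6, 601 and 401 FPKM in WT_ND. The wild-type libraries were all above the mutant ones, which differed little among themselves. The fold change was -0.80 (SE 0.14, adjusted p = 7.00e-05), -0.56 without the 3 libraries and 0.22 in TPM. Hspa8 has 13 other rows described as the same protein, the highest at 5.87 FPKM, which could take a small share of its reads. Hspa1l, an HSP70 best known from testis, had 10.3, 12.4 and 13.9 FPKM in DMD_KD, 7.89, 10.2 and 12.5 FPKM in DMD_ND, and 26.4, 14.8, 30.6 and 14.4 FPKM in WT_ND. WT_ND1 and WT_ND4 stood far above WT_ND3 and WT_ND9, although all 4 were above every mutant library. Its log2 change was -0.95 (SE 0.18, adjusted p = 0.000222), with -0.50 without the 3 libraries and 0.00 in TPM.

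Hspa2, also rich in testis, was low in this muscle, with 2.68, 3.15 and 4.77 FPKM in DMD_KD, 3.15, 3.73 and 4.44 FPKM in DMD_ND, and 1.63, 1.57, 2.75 and 1.44 FPKM in WT_ND. All wild-type libraries were below all mutant libraries except that WT_ND4 was above the lowest DMD_KD library. The rise was 0.75 (SE 0.14, adjusted p = 0.000151), 0.91 without the 3 libraries and 1.68 in TPM. Hspa14, a ribosome-bound HSP70 that works with Dnajc2, had 3.08, 3.35 and 4.26 FPKM in DMD_KD, 2.74, 4.19 and 5.67 FPKM in DMD_ND, and 2.51, 3.3, 1.96 and 2.1 FPKM in WT_ND. The DMD_ND and WT_ND libraries overlapped, since WT_ND3 was above the lowest DMD_ND library. Its rise was 0.59 (SE 0.15, adjusted p = 0.00183), 0.50 without the 3 libraries and 1.51 in TPM. A gene without a symbol overlaps Hspa14 on the same strand and took 22.6% of its read number. The inducible pair Hspa1a and Hspa1b is not named by symbol in the table. A row described as heat shock 70 kDa protein 1A on chromosome 20 (bases 3856006 to 3873240) lies outside the naming rule, overlaps a second such row, and had 2.90, 3.42 and 4.29 FPKM in DMD_KD, 3.37, 4.05 and 5.04 FPKM in DMD_ND, and 7.0, 5.39, 3.78 and 3.56 FPKM in WT_ND, with no call in DMD_ND over WT_ND (-0.21, adjusted p = 0.217) but a call in TPM (0.67). In DMD_KD over WT_ND it was called lower (-0.37, adjusted p = 0.0363), and in TPM it was at 0.26 and not called.

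Of the HSP110 exchange factors, Hspa4 and Hsph1 were called lower in deposited FPKM, and on TPM neither was called and both were above 0. HSP110 proteins release ADP from HSP70 and help to dissolve aggregates. Hspa4 had 11.1, 22.3 and 24.3 FPKM in DMD_KD, 18.3, 21.7 and 25.5 FPKM in DMD_ND, and 32.6, 35.5, 27.2 and 35.9 FPKM in WT_ND, and every DMD_ND library was below every WT_ND library. Its fold change was -0.57 (SE 0.17, adjusted p = 0.00885), -0.69 without the 3 libraries and 0.42 in TPM. Hsph1, or HSP105, whose promoter is shown above, had 7.91, 9.78 and 11.2 FPKM in DMD_KD, 7.55, 9.54 and 12.3 FPKM in DMD_ND, and 20.2, 16.3, 17.6 and 17.4 FPKM in WT_ND. All mutant libraries were below all wild-type libraries. Its log2 change was -0.83 (SE 0.12, adjusted p = 1.17e-05), -0.75 without the 3 libraries and 0.12 in TPM. Hspa4l had 0.330, 0.663 and 0.831 FPKM in DMD_KD, 0.477, 0.660 and 0.786 FPKM in DMD_ND, and 1.7, 2.01, 1.14 and 1.73 FPKM in WT_ND, so that every mutant library was under 1 FPKM and every wild-type library above it. Its fitted difference was -0.69 in deposited FPKM and -0.25 in TPM.

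In the HSP90 pair of the cytosol, Hsp90ab1 was called lower in deposited FPKM and Hsp90aa1 was not called. Hsp90ab1, the constitutive form, had 191, 199 and 272 FPKM in DMD_KD, 149, 185 and 210.0 FPKM in DMD_ND, and 468, 371, 456 and 370.2 FPKM in WT_ND. No mutant library reached the wild-type range, and DMD_KD3 was the highest mutant library. The difference was -1.17 (SE 0.14, adjusted p = 9.55e-07), -1.02 without the 3 libraries, and in TPM -0.16 and not called. Hsp90aa1, the inducible form, had 7.15, 27.8 and 35.4 FPKM in DMD_KD, 30.8, 36.3 and 54.3 FPKM in DMD_ND, and 20.7, 52.9, 16.1 and 39.2 FPKM in WT_ND. Its libraries spread widely: WT_ND3 and WT_ND9 were high, WT_ND1 and WT_ND4 low, and DMD_KD3 lowest of all. It was not called, at 0.42 (SE 0.37, adjusted p = 0.332), and the sign turned to -0.21 without the 3 libraries, while TPM gave 1.42 with a call.

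The ER class was mixed: of 12 tested members 1 rose (Hsp90b1) and 5 fell (Dnajb12, Dnajc3, Dnajc10, Dnajb9 and Dnajc25) in deposited FPKM, whereas on TPM 7 were called higher and none lower. Of all tested genes 31.5% rose and 34.3% fell in deposited FPKM, and 70.7% were called higher on TPM, so the counts of falls and of TPM rises were near the background. Hspa5 encodes BiP, the ER's HSP70 and sensor partner of the unfolded protein response. It had 46.5, 70.4 and 82.4 FPKM in DMD_KD, 79.7, 85 and 122 FPKM in DMD_ND, and 75.4, 63.3, 81.2 and 74 FPKM in WT_ND. Every DMD_ND library but 2 was above the highest WT_ND library, WT_ND4, and those 2 were just below it. Its difference was not called, at 0.31 (SE 0.16, adjusted p = 0.0951), with 0.40, called, without the 3 libraries and 1.32, called, in TPM. Hsp90b1, or GRP94, the ER's HSP90, had 16.8, 36.2 and 43.4 FPKM in DMD_KD, 36.9, 42.6 and 61.1 FPKM in DMD_ND, and 28.7, 31.4, 26.8 and 31.3 FPKM in WT_ND. All DMD_ND libraries were above all WT_ND libraries, DMD_ND11 being far above the others, and DMD_KD3 was the lowest of all 16. The rise was 0.56 (SE 0.21, adjusted p = 0.0234), 0.48 without the 3 libraries and 1.57 in TPM, and the call was lost without DMD_ND11 (adjusted p = 0.0541), without WT_ND1 (0.0504) or without WT_ND4 (0.0611).

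Dnajb12 sits in the ER membrane and recruits HSC70 to membrane protein quality control. It had 12.7, 14.6 and 18.9 FPKM in DMD_KD, 12.1, 13 and 13.4 FPKM in DMD_ND, and 30.2, 21.2, 34.7 and 23.4 FPKM in WT_ND. All mutant libraries were below all wild-type libraries. The log2 change was -1.01 (SE 0.13, adjusted p = 2.72e-06), with -0.75 without the 3 libraries and -0.04 in TPM. Dnajc3, or P58IPK, which restrains the ER stress kinase PERK and also binds clients inside the ER, was at -0.89 (SE 0.12, adjusted p = 8.04e-06) and 0.06 in TPM. Dnajc10, the reductase ERdj5, was at -0.56 (SE 0.13, adjusted p = 0.000976) and 0.39 in TPM, and Dnajb9, or ERdj4, at -0.48 (SE 0.20, adjusted p = 0.0387), -0.72 without the 3 libraries and 0.46 in TPM. Dnajb11, ERdj3, was not called at 0.06 (SE 0.09, adjusted p = 0.579) but was called higher in TPM at 1.02, and it shares bases with Tbccd1.

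Nearly the whole mitochondrial class was lower: 9 of its 10 tested members were called lower in deposited FPKM (34.3% of all tested genes were), with a class median of -0.89. On TPM 1 was called lower and 4 higher (5.94% and 70.7% of all tested genes were), with a median of 0.10. Hspa9, mortalin, pulls imported proteins into the matrix. It had 43.8, 69.8 and 82.5 FPKM in DMD_KD, 55.6, 65.5 and 71.3 FPKM in DMD_ND, and 172, 184, 150.3 and 169.5 FPKM in WT_ND. The mutant libraries were all far below the wild-type ones, and DMD_KD3 was the lowest. The log2 change was -1.38 (SE 0.15, adjusted p = 4.96e-07), -1.45 without the 3 libraries and, in TPM, -0.38 and not called. Hspd1, the HSP60 chamber of the mitochondrial chaperonin, had 36.6, 63.3 and 73.7 FPKM in DMD_KD, 51.8, 60.3 and 74.9 FPKM in DMD_ND, and 110.4, 135, 105 and 123 FPKM in WT_ND. Again no mutant library reached the wild-type range. Its fold change was -0.92 (SE 0.17, adjusted p = 0.000123), -1.05 without the 3 libraries and 0.08 in TPM.

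Hspe1 encodes HSP10, the lid of that chamber. It lies 126 bases from Hspd1 on chromosome 9 in the opposite orientation (bases 56589789 to 56593089, against 56579201 to 56589662 for Hspd1, mRatBN7.2). It had 68.3, 78.2 and 111 FPKM in DMD_KD, 69.4, 72.4 and 78.7 FPKM in DMD_ND, and 142, 101, 161 and 93 FPKM in WT_ND. All DMD_ND libraries were below all WT_ND libraries, whereas DMD_KD3 was within the wild-type range. The fold change was -0.72 (SE 0.16, adjusted p = 0.000667), -0.40 without the 3 libraries, and in TPM 0.29, called higher. In the 3 libraries that stood apart the partners went different ways, with Hspe1 at the high end of its group and Hspd1 at the low end. Dnaja3, the mitochondrial DnaJ partner of mortalin, had 25.9, 29.3 and 33.3 FPKM in DMD_KD, 18.9, 25 and 26.8 FPKM in DMD_ND, and 64.4, 59.4, 64 and 59.3 FPKM in WT_ND. Every mutant library was far below every wild-type library. Its change of -1.32 (SE 0.11, adjusted p = 3.14e-08), -1.27 without the 3 libraries, was the 1 fall that TPM also called (-0.34, adjusted p = 0.0247), where DMD_ND averaged 60.7 ± 5.16 TPM and WT_ND 77.7 ± 14.3 TPM (SD, n = 6 and 4). On TPM these groups overlapped, with WT_ND1 at 64.7 TPM and DMD_ND11 at 66.7 TPM. WT_ND4 was at 67.4 TPM, and WT_ND3 and WT_ND9 were higher, at 83.5 and 95.3 TPM.

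Other mitochondrial DnaJ proteins were lower too in deposited FPKM, among them Dnajc15 at -1.01 (SE 0.21, adjusted p = 0.000488), Dnajc28 at -1.10 (SE 0.22, adjusted p = 0.000244), Dnajc30 at -0.70 (SE 0.16, adjusted p = 0.00112) and Dnajc11 at -0.62 (SE 0.13, adjusted p = 0.000632); in TPM these were -0.02, -0.33, 0.26 and 0.34, the last 2 called higher, and without the 3 libraries -0.67, -1.26, -0.38 and -0.39, all called lower. Dnajc4, at -0.85 (SE 0.19, adjusted p = 0.000811), -0.53 without the 3 libraries and 0.13 in TPM, overlaps Stip1 on the same strand, which took 25594 reads against 9501. Dnajc19, a partner of the inner membrane import motor, was not called, at -0.17 (SE 0.12, adjusted p = 0.236), but was called lower without the 3 libraries, at -0.37, and higher in TPM, at 0.79, and it overlaps the more abundant Fxr1.

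Of the 8 tested class A and B DnaJ proteins of the cytosol and nucleus, Dnaja4, Dnajb5, Dnaja2, Dnajb6 and Dnajb2 fell in deposited FPKM and none rose, while on TPM none fell and 4 were called higher, Dnaja2 and Dnajb2 among them. Of all tested genes 34.3% fell and 31.5% rose in deposited FPKM, and 70.7% were called higher on TPM. Dnaja4, a class A partner of HSP70 that is abundant in muscle, had 57.7, 69.2 and 82.3 FPKM in DMD_KD, 51.6, 59.4 and 71.2 FPKM in DMD_ND, and 149.6, 119.6, 138 and 104 FPKM in WT_ND. Mutant and wild-type libraries did not overlap in deposited FPKM, but on TPM Dnaja4 had 139 to 175 TPM in DMD_ND and 145 to 168 TPM in WT_ND. Its fold change was -1.06 (SE 0.13, adjusted p = 2.50e-06), -0.88 without the 3 libraries and -0.06 in TPM. Dnajb5, a relative of HSP40, had 39.9, 52.7 and 75.4 FPKM in DMD_KD, 36.2, 42.3 and 48.7 FPKM in DMD_ND, and 91.5, 85.3, 126 and 81.4 FPKM in WT_ND, and again the groups did not overlap. DMD_ND differed by -1.13 (SE 0.17, adjusted p = 2.03e-05), with -0.95 without the 3 libraries and -0.13 in TPM. Dnaja2, a class A partner of HSC70, had 39.1, 49.9 and 59.1 FPKM in DMD_KD, 48.8, 51.2 and 53.9 FPKM in DMD_ND, and 68.5, 75.6, 75.6 and 76.4 FPKM in WT_ND. The wild-type libraries lay close together above all mutant libraries. The fold change was -0.52 (SE 0.11, adjusted p = 0.00039), -0.56 without the 3 libraries and 0.48, called higher, in TPM.

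Dnajb6, mutated in a dominant limb-girdle muscular dystrophy in people, was at -0.76 (SE 0.11, adjusted p = 1.72e-05) and 0.23 in TPM. Dnajb2 was at -0.69 (SE 0.13, adjusted p = 0.000153) and 0.30 in TPM. The stress-responsive HSP40 gene Dnajb1 was not called, at 0.27 (SE 0.19, adjusted p = 0.221), but was called higher without the 3 libraries (0.52) and in TPM (1.23). Dnajb4 was not called either, at -0.46 (SE 0.24, adjusted p = 0.0994) and 0.53 in TPM, but was called lower without the 3 libraries (-0.86), and it had 11.9, 27.4 and 34.7 FPKM in DMD_KD, 28.1, 29.5 and 33.3 FPKM in DMD_ND, and 32.4, 58.9, 30.4 and 51.2 FPKM in WT_ND. Dnajb4 shared with Hsp90aa1 and Dnaja1 the high WT_ND3 and WT_ND9, low WT_ND1 and WT_ND4 and lowest DMD_KD3. Dnaja1, the farnesylated class A partner of HSP70, had 6.9, 16.6 and 20.9 FPKM in DMD_KD, 18.8, 22.2 and 31.1 FPKM in DMD_ND, and 13.3, 27.8, 13.8 and 19.4 FPKM in WT_ND. Its groups overlapped, and it was not called at 0.37 (SE 0.25, adjusted p = 0.205), with 0.00 without the 3 libraries and 1.36, called, in TPM.

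The remaining class C DnaJ proteins are those not placed in the ER or mitochondrial class here, whatever their location. Of the 14 tested, 4 fell (Dnajc21, Dnajc27, Dnajc16 and Dnajc13) and 10 were not called in deposited FPKM. On TPM 9 were called higher and none lower. These are near the shares of all tested genes, 34.3% lower in deposited FPKM and 70.7% higher on TPM, while none of the 14 rose in deposited FPKM, where 31.5% of all did. Dnajc7, a tetratricopeptide protein that joins HSP70 and HSP90, had 26.1, 39.1 and 42 FPKM in DMD_KD, 36.2, 42.4 and 43.6 FPKM in DMD_ND, and 38.7, 46.5, 44.5 and 48.2 FPKM in WT_ND. Its groups overlapped and its difference was not called, at -0.10 (SE 0.13, adjusted p = 0.512), with -0.19 without the 3 libraries and 0.90 in TPM. Dnajc21, which acts in the maturation of the large ribosomal subunit, had 16.2, 29 and 35.1 FPKM in DMD_KD, 20.4, 27.4 and 31.7 FPKM in DMD_ND, and 56.8, 63.4, 47.9 and 61.4 FPKM in WT_ND. All mutant libraries were below all wild-type libraries. The difference was -1.08 (SE 0.18, adjusted p = 5.45e-05), -1.21 without the 3 libraries and -0.09 in TPM.

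Dnajc8, a spliceosome-associated protein, had 19.2, 19.8 and 21.3 FPKM in DMD_KD, 18.6, 20 and 22.1 FPKM in DMD_ND, and 25.4, 19.3, 29.2 and 20.8 FPKM in WT_ND, and the mutant values lay in or just below the lower part of the wild-type range. It was not called at -0.20 (SE 0.11, adjusted p = 0.121), with 0.01 without the 3 libraries and 0.79 in TPM, but was called without WT_ND3 (-0.29, adjusted p = 0.0309). Dnajc9, a histone co-chaperone, had 5.58, 8.41 and 9.87 FPKM in DMD_KD, 9.07, 9.73 and 9.94 FPKM in DMD_ND, and 6.94, 8.77, 6.26 and 9.05 FPKM in WT_ND. Its DMD_ND libraries were above all WT_ND libraries by a narrow margin. The difference was not called, at 0.29 (SE 0.13, adjusted p = 0.0592), with 0.09 (adjusted p = 0.315) without the 3 libraries, but was called in TPM, at 1.24, and without WT_ND3 (adjusted p = 0.0409) or without WT_ND9 (0.0329). Dnajc5, the cysteine string protein of vesicles, showed the smallest difference of the class, 0.01 (SE 0.08, adjusted p = 0.904), and 0.99 in TPM.

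Ratios of 2 members within a library do not depend on the scaling between libraries, since the scale cancels. The pairs were picked after the values were seen, so the ratios are a description with no test. The ratio of Hspb8 to Cryab was 0.539 to 0.786 in DMD_KD, 0.689 to 0.809 in DMD_ND and 0.254 to 0.303 in WT_ND. The ratio of Hspb1 to Cryab was 0.331 to 0.487 in DMD_KD, 0.334 to 0.624 in DMD_ND and 0.230 to 0.257 in WT_ND. In both, mutant and wild-type libraries stood apart. The ratio of Hsp90b1 to Hsp90ab1, the ER form over the cytosolic form, was 0.0618 to 0.219 in DMD_KD, 0.202 to 0.291 in DMD_ND and 0.0588 to 0.0847 in WT_ND, with DMD_KD3 the 1 mutant library inside the wild-type range. The ratio of Hspa5 to Hspa9, the ER's HSP70 over that of mitochondria, was 0.824 to 1.14 in DMD_KD, 1.2 to 1.72 in DMD_ND and 0.343 to 0.540 in WT_ND. Here the 3 groups did not overlap with each other. The inducible to constitutive ratio Hsp90aa1 over Hsp90ab1 was 0.0263 to 0.179 in DMD_KD, 0.167 to 0.259 in DMD_ND and 0.0353 to 0.143 in WT_ND. Without the 3 libraries that stood apart it was 0.115 to 0.179 in DMD_KD and 0.106 to 0.143 in WT_ND.

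**Figure D3:**
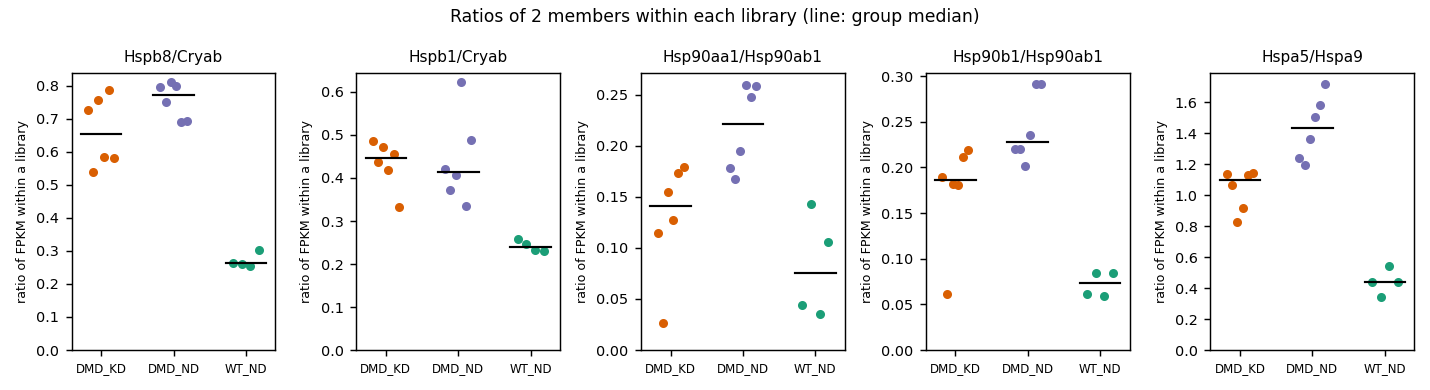
Ratio of the FPKM of 2 members within each library (no unit), for 5 pairs, with DMD_KD left, DMD_ND in the middle and WT_ND right, and a line at the group median. Hspb8/Cryab, Hspb1/Cryab and Hspa5/Hspa9 are above the wild-type range in all mutant libraries, and Hspa5/Hspa9 separates all 3 groups.

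The diet comparison, DMD_KD against DMD_ND, called no member. At an adjusted p under 0.05 limma called 0 of the 62 tested members in either direction, beside 0.00825% of all tested genes, 1 gene. Of the members, 9 had an unadjusted p under 0.05 (18 on TPM), and limma-voom on reads recovered from the FPKM also called 0. The share of all tested genes at an unadjusted p under 0.05 is not given here. These counts, and those of gene lists and markers below, therefore show no excess by themselves. The median log2 fold change of the tested members, DMD_KD over DMD_ND, was 0.04 in deposited FPKM and -0.21 in TPM, against -0.01 and -0.24 for all tested genes.

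The 5 members with the smallest p were as follows, with fold changes of DMD_KD over DMD_ND. Dnajc22, which stood at 1.68, 2.32 and 3.46 FPKM in DMD_KD, 1.03, 1.45 and 1.98 FPKM in DMD_ND, and 2.43, 1.3, 2.74 and 1.32 FPKM in WT_ND, had a difference of 0.49 (SE 0.15, unadjusted p = 0.00549, adjusted p = 0.22), 0.41 without DMD_KD3 and 0.39 in TPM. Hspa5, whose values are given above, had -0.41 (SE 0.14, unadjusted p = 0.00922, adjusted p = 0.235), -0.31 without DMD_KD3 and -0.68 in TPM. Of its DMD_ND libraries, 3 were above all DMD_KD libraries, and the other 3 were passed by DMD_KD9 alone. Dnajc1, an ER membrane DnaJ protein that binds ribosomes, had 2.43, 4.07 and 4.23 FPKM in DMD_KD, 4.32, 4.62 and 5.3 FPKM in DMD_ND, and 3.96, 4.64, 4.75 and 4.12 FPKM in WT_ND, and its DMD_KD and DMD_ND libraries did not overlap. The difference was -0.27 (SE 0.10, unadjusted p = 0.0171, adjusted p = 0.263), -0.17 without DMD_KD3 and -0.54 in TPM. Dnaja1 was at -0.59 (SE 0.23, unadjusted p = 0.0174, adjusted p = 0.264), -0.39 without DMD_KD3 and -0.87 in TPM. Dnaja3 was at 0.26 (SE 0.10, unadjusted p = 0.0183, adjusted p = 0.268), 0.23 without DMD_KD3 and 0.00 in TPM. Hsp90aa1 had the largest difference in size, -0.73 (SE 0.33, unadjusted p = 0.0424, adjusted p = 0.338), of which -0.42 was left without DMD_KD3, and -1.01 in TPM. None of these passes the adjustment over all genes.

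**Figure D4:**
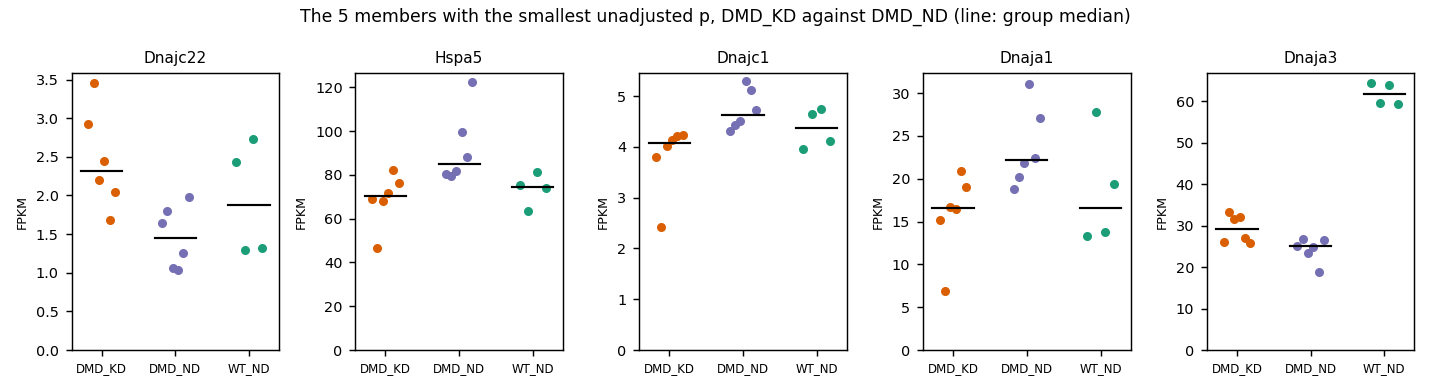
FPKM of the 5 members with the smallest unadjusted p for DMD_KD against DMD_ND, in each library, with DMD_KD left, DMD_ND in the middle, WT_ND right and a line at the group median. Dnajc1 does not overlap between DMD_KD and DMD_ND, DMD_KD3 is the lowest library for Hspa5, Dnajc1 and Dnaja1, and none of the 5 was called.

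Mutant muscle on MCTKD was also set against WT_ND, a comparison that shares its wild-type libraries with the first. In deposited FPKM 33 of the 62 tested members were called lower (53.2%, or 32 of 61 without Hspa4l, against 31.1% of all tested genes) and 4 higher (6.45%, against 27.3%). On TPM 3 were called lower (4.84%, against 4.73%) and 21 higher (33.9%, against 57.2%). The 4 rises in limma included Hspb8 at 0.47 (SE 0.16, adjusted p = 0.0158) and Hspa2 at 0.64 (SE 0.14, adjusted p = 0.000879). The others were Hspb11 at 0.59 (SE 0.15, adjusted p = 0.00297) and Hspa14 at 0.40 (SE 0.15, adjusted p = 0.0278). In this order they were also called on TPM, at 1.22, 1.30, 1.21 and 1.05. That scale moved the median of all tested genes upward, so it is no separate support for a rise. The 3 falls that TPM also called were those of Dnaja3, at -1.06 (SE 0.11, adjusted p = 6.45e-07) and -0.33 in TPM, Hspa9, at -1.34 (SE 0.15, adjusted p = 1.18e-06) and -0.60 in TPM, and Hsp90ab1, at -0.99 (SE 0.14, adjusted p = 9.45e-06) and -0.25 in TPM. Their adjusted p in limma on TPM were 0.0325, 0.0435 and 0.0329, and DMD_KD and WT_ND libraries overlapped for each on TPM. Hspa9 had 60.2 TPM in DMD_KD3 and 138 to 176 TPM in the other DMD_KD libraries. In WT_ND it had 173, 259, 158 and 272 TPM. Without the 3 libraries that stood apart 4 were called higher and 34 lower, but Hspa14 (0.34, adjusted p = 0.141), Hspb3, Hspa1l and Dnajc25 were no longer among them. Added there were Dnajc22 as higher (0.49, against 0.25 with all libraries) and, as lower, Hsp90aa1 (-0.63, against -0.31 with all libraries and 0.41 in TPM), Dnajc7, Dnajc2 and Dnajc19. Single libraries also decided the calls of 2 of the 4 rises: Hspa14 was not called without DMD_KD1, DMD_KD10, WT_ND4 or WT_ND9 (adjusted p = 0.056 to 0.094), nor Hspb8 without WT_ND3 or WT_ND9 (0.0701 and 0.0588). Hspb6, at -0.69 (SE 0.22, adjusted p = 0.0124) and 0.06 in TPM, was not called without WT_ND1 (0.0562) or WT_ND4 (0.0504).

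All 31 members that fell in DMD_ND were also called lower in DMD_KD in deposited FPKM, and Hspb3 (-0.47 (SE 0.13, adjusted p = 0.00491), 0.26 in TPM) and Dnajb4 (-0.76 (SE 0.24, adjusted p = 0.012), -0.04 in TPM) were called there in addition. Hsp90b1, called higher in DMD_ND, was not called in DMD_KD in deposited FPKM, at 0.18 in limma (SE 0.21, adjusted p = 0.469). It was at 0.29 and not called without the 3 libraries, and at 0.91 and called higher in TPM. Without DMD_KD3 alone it was called higher (0.37, adjusted p = 0.0158). The differences between DMD_KD and DMD_ND for these genes were not called (-0.21, -0.30 and -0.38 in deposited FPKM, adjusted p = 0.385, 0.495 and 0.355). Cryab was at -0.80 (SE 0.20, adjusted p = 0.00239) in DMD_KD over WT_ND, -0.58 without the 3 libraries and -0.06 in TPM. Hspa8 was at -0.79 (SE 0.14, adjusted p = 0.000105), -0.57 without the 3 libraries and -0.05 in TPM.

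Genes that work with these chaperones were taken from fixed lists. As a base for each list, 34.3% of all tested genes were lower and 31.5% higher for DMD_ND over WT_ND in deposited FPKM. On TPM 5.94% were lower and 70.7% higher. For DMD_ND over WT_ND, the HSP90 co-chaperones and myosin chaperones had 11 of 16 tested genes lower and none higher in deposited FPKM (median -0.63), and on TPM 1 lower and 6 higher (median 0.33). Fkbp4, a co-chaperone of steroid receptors, was at -2.05 (SE 0.22, adjusted p = 4.50e-07) and -1.07 in TPM, the 1 fall of the list called on both scales, with 34.5 ± 12.2 FPKM in DMD_KD, 24.1 ± 3.67 FPKM in DMD_ND and 106 ± 32.2 FPKM in WT_ND (SD, n = 6, 6 and 4). Unc45b, the myosin chaperone that works with HSP90, was at -1.19 (SE 0.15, adjusted p = 2.72e-06) and -0.20 in TPM. The BAG and HSP70 partner list had 9 of 16 lower and 1 higher (Sil1), median -0.47, and on TPM 12 higher and none lower. Its share of TPM rises was near that of all tested genes. Stip1, the adaptor between HSP70 and HSP90, had the smallest p of the list, at -0.94 (SE 0.13, adjusted p = 5.87e-06) and 0.05 in TPM.

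The list of mitochondrial chaperones and proteases outside the member families had 8 of 11 lower and 1 higher (Htra2), median -0.75, and on TPM 1 lower and 2 higher. Lonp1, the matrix protease, was at -0.93 (SE 0.10, adjusted p = 3.00e-07) and 0.06 in TPM, and the disaggregase Clpb at -1.23 (SE 0.13, adjusted p = 4.80e-07) and -0.29 in TPM. The chaperonin CCT and prefoldin list had 4 of 13 lower and none higher, median -0.16, and on TPM all 13 higher, with Cct7 at -0.50 (SE 0.13, adjusted p = 0.00227) and 0.50 in TPM. Its share of falls was near the 34.3% of all tested genes. Among the 4 tested heat shock factors and their binding protein, Hsf1, the main activator of heat shock genes, was called lower in deposited FPKM at -0.70 (SE 0.19, adjusted p = 0.00323) and higher in TPM at 0.24, and the other 3 were called on TPM alone, as higher.

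In the ER folding list 8 of 19 tested genes were higher and 3 lower in deposited FPKM (median 0.15), and 17 higher and 1 lower on TPM. Of all tested genes 31.5% were higher and 34.3% lower in deposited FPKM, and 70.7% and 5.94% on TPM. Serpinh1, the collagen chaperone HSP47, was at 1.66 (SE 0.15, adjusted p = 4.23e-08) and 2.68 in TPM, with 98.4 ± 13.8 FPKM in DMD_KD, 103 ± 16 FPKM in DMD_ND and 31.7 ± 5.03 FPKM in WT_ND (SD, n = 6, 6 and 4). Ppib, a prolyl isomerase of the ER that also serves collagen, was at 1.54 (SE 0.18, adjusted p = 1.41e-06) and 2.56 in TPM. Of the 7 tested genes for clients of small heat shock proteins and for chaperone-assisted autophagy, 5 were lower and 1 higher, and on TPM 1 lower and 6 higher. The rise on both scales was Vim, an intermediate filament gene of fibroblasts and other mesenchymal cells, at 2.69 (SE 0.14, adjusted p = 1.11e-10) and 3.71 in TPM, and Synpo2, a partner of BAG3, was at -1.55 (SE 0.17, adjusted p = 4.89e-07) and -0.54 in TPM. No gene of these 7 lists was called for DMD_KD against DMD_ND, and 0 to 2 genes of each list had an unadjusted p under 0.05 in limma in deposited FPKM. On TPM, with none called, 11 of 13 genes of the CCT and prefoldin list, 7 of 19 of the ER folding list, 6 of 16 of the BAG list and 0 to 3 of each other list had one.

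Cell markers and other gene groups moved with the same comparisons, and their part in the chaperone results was not tested. For DMD_ND over WT_ND, 31.5% of all tested genes were called higher and 34.3% lower in deposited FPKM. On TPM 70.7% were higher and 5.94% lower, and these shares also apply to the groups of the next paragraph. Macrophage markers were called higher in 15 of 15 genes for DMD_ND over WT_ND on both scales, and their summed level was 424 to 688 FPKM in DMD_KD, 465 to 901 FPKM in DMD_ND and 29.3 to 72.4 FPKM in WT_ND. Fibro-adipogenic and fibroblast markers were called higher in 12 of 12 on both scales, with sums of 1694 to 2642 FPKM in DMD_KD, 2086 to 3495 FPKM in DMD_ND and 186 to 411 FPKM in WT_ND. Markers of satellite cells and regenerating fibres were higher in 7 of 9 (9 of 9 on TPM), adipocyte markers in 6 of 6 and Schwann cell markers in 3 of 6 tested (6 on TPM), where Mpzl2 was at 0 in WT_ND. Endothelial markers were higher in 2 of 9 and lower in 2 (7 higher on TPM), and smooth muscle and pericyte markers higher in 5 of 9 (8 on TPM). Both red blood cell markers were lower and not called on TPM. Skeletal muscle fibre markers, present in every library, were lower in 9 of 10 (4 lower and 1 higher on TPM), with sums of 38197 to 124834 FPKM in DMD_KD, 29439 to 49854 FPKM in DMD_ND and 68438 to 126591 FPKM in WT_ND. For DMD_KD over DMD_ND limma called no marker, but several lists lay mostly to 1 side of 0. The fibre markers were above 0 in 10 of 10 in deposited FPKM (median 0.46, and 0.19 in TPM), with 4 at an unadjusted p under 0.05. Adipocyte markers were below 0 in 6 of 6 (-0.91, and -1.26 in TPM), Schwann cell markers in 6 of 6 (-0.39, and -0.67 in TPM) and fibroblast markers in 11 of 12 (-0.34, and -0.61 in TPM), with 3 of each at an unadjusted p under 0.05.

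Nuclear genes of oxidative phosphorylation were called lower in 25 of 26 tested (18 lower and 1 higher on TPM), with a median of -1.31 in deposited FPKM beside -0.89 for the mitochondrial chaperones, and -0.30 in TPM beside 0.10. Sdha was at -1.77 (SE 0.12, adjusted p = 3.55e-09) and -0.76 in TPM. Mitochondrially encoded reads made up 15.6 ± 1.0% of assigned reads in DMD_KD, 13.1 ± 0.776% in DMD_ND and 23.0 ± 2.41% in WT_ND (SD, n = 6, 6 and 4). For DMD_KD over DMD_ND all 26 genes of that list were above 0 in deposited FPKM with a median of 0.34 and 0.08 in TPM, and limma called none (13 at an unadjusted p under 0.05). Immediate early genes, which handling of tissue can induce, were higher in 6 and lower in 3 of 14 tested for DMD_ND over WT_ND (9 higher on TPM). Their summed level was 144 to 242 FPKM in DMD_KD, 135 to 615 FPKM in DMD_ND and 181 to 514 FPKM in WT_ND, and for DMD_KD over DMD_ND their median was -0.62 (-0.94 in TPM) with none called by limma (4 at an unadjusted p under 0.05), beside the differences of Hsp90aa1, Dnaja1 and Hspa5.

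Counts of several members depend on how reads of overlapping or near-identical genes were assigned by the authors, a setting that the sources used here do not give. Of the tested members 19 overlap another gene, and for 10 of them the partner took at least 10% of their read number: Hspb2, Hspb11, Hspa12b, Hspa14, Dnajb11, Dnajc4, Dnajc14, Dnajc17, Dnajc19 and Dnajc24. Rows described as the same protein number 6 for Hspd1 (the highest at 5.36 FPKM), 1 for Hspa9 (0.257 FPKM), 3 for Dnajb6 (2.15 FPKM), and 6 each for Hsp90aa1 and Hsp90ab1 (0.951 and 0.374 FPKM).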

How the data were processed

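Poly-A RNA was caught on poly-T beads from RNAisoPlus extracts of frozen muscle, per the labels' protocols. The submitters' processing notes name the build mRatBN7.2, the tool featureCounts 1.5.0-p3 and the tool HISAT2 2.0.5, with settings that no source used here gives. The authors deposited FPKM for 31141 genes, per the file headers. Multiplied by gene length, 100% of values were whole reads within 0.05, and each library's scale followed its median-of-ratios size factor.

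Values were tested here as log2(FPKM + 1) in limma 3.58.1 (R 4.3.3, eBayes with trend and robust options), in 1 model of 3 group means over 16 libraries (13 residual degrees of freedom), on 12119 genes that reached 1 FPKM in 4 or more libraries. P-values are two-sided and Benjamini-Hochberg adjusted over those genes, and genes were called at an adjusted p under 0.05. The test was also run on simulated data with independent normal noise. That simulation held no outlying libraries and no scale shift between groups, so it does not cover these features of the data. Members, role classes, gene lists and tests were chosen with earlier results of these data known. In each class values are given for up to 3 members with the highest mean FPKM and those with the largest rise and fall in DMD_ND, and for the 5 smallest p of the diet comparison; ratios, and Dnajb4's values, were chosen after values were seen. Of each gene list, 1 or 2 of the 4 genes with the smallest p are named. Alternatives were a pseudocount of 0.1, no filter, a mean of at least 5 FPKM, TPM, array weights, 2-group fits, a replicate block, each library left out, voom on recovered reads and, added after seeing the data, the 3 libraries with an array weight under 0.5 left out.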

Additional observations from a re-analysis of the deposited data

Results flagged for a closer look

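In 11 of 90 groups of values examined for the named members, 1 library lay far from the others of its group by Dixon's test, which chance gives in about 1 of 20 groups, and 8 of the 11 were in DMD_KD3. In DMD_KD3, Cryab was at 868 FPKM (448 to 589.6 in the other DMD_KD libraries), Hspb6 at 574 (236 to 349.5), Hspb8 at 468 (333 to 361), Hsp90ab1 at 272 (191 to 200.2), Hspe1 at 111 (68.3 to 81.7) and Dnajb12 at 18.9 (12.7 to 14.9), all above the others. In the same library Hsp90b1 was at 16.8 FPKM (35.3 to 43.4 in the others) and Dnajc1 at 2.43 (3.80 to 4.23), both below. Hsp90b1 was at 61.1 FPKM in DMD_ND11 (36.9 to 43.8 in the other DMD_ND libraries). Hspa2 was at 2.75 FPKM in WT_ND4 (1.44 to 1.63 in the other WT_ND libraries), and Dnaja2 at 68.5 in WT_ND1 (75.6 to 76.4). The part of DMD_KD3, WT_ND1 and WT_ND4 in each comparison is given by the values without them.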

How the results depend on the processing

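Scaling to TPM moved the counts of called members: for DMD_ND over WT_ND 34 higher and 1 lower, and for DMD_KD over WT_ND 21 higher and 3 lower, against 5 and 31, and 4 and 33, in deposited FPKM. On TPM the log2 changes turned sign for 35 of the 62 tested members in DMD_ND over WT_ND and for 34 in DMD_KD over WT_ND. Of the members described in full and called on at least 1 of the 2 scales, those of DMD_ND over WT_ND turned for Cryab (0.14), Hspb6 (0.025), Hspa8 (0.22), Hspa4 (0.42), Hsph1 (0.12), Hspe1 (0.29), Hspd1 (0.081), Dnaja2 (0.48), Dnajc7 (0.90), Dnajc8 (0.79) and Dnajc22 (0.47). Those of DMD_KD over WT_ND turned for Hspb6 (0.058), Hspa4 (0.013), Hspa5 (0.63), Hspe1 (0.16), Dnaja2 (0.15) and Dnajc8 (0.51). TPM gives each library an equal total, where the deposited totals differ by group. With no filter 8 members were called higher in DMD_ND, and with a mean of at least 5 FPKM 2 in DMD_ND and 1 in DMD_KD, as more or fewer members were tested. With each library left out, the calls for DMD_ND over WT_ND were 4 to 6 higher and 30 to 32 lower, those for DMD_KD over WT_ND 2 to 5 higher (2 without WT_ND9) and 31 to 34 lower, and those for DMD_KD over DMD_ND 0. The labels do not say whether replicate numbers pair the libraries. Correlations of same-numbered deviations ranged from -0.656 to 0.407, and whether they differ from those of other pairs was not tested. With the replicate block 4 members were called higher and 24 lower for DMD_ND over WT_ND, 3 and 23 for DMD_KD over WT_ND and 0 for the diet. Array weights, a pseudocount of 0.1, 2-group fits and voom left every count of members within 1.5 times. The number of libraries and 17125084 to 28116085 assigned reads per library limit the precision.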
